A study of Mus musculus with 13 samples.

Results

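The regions described here were the FS2-AEBP2 peaks of mouse embryonic stem cells (mESCs) that carried H3K27me3 and no endogenous AEBP2 peak. They were chosen by a rule on the deposited peak lists, namely an overlap of at least 1 bp with a peak of either H3K27me3 list and with no peak of either endogenous AEBP2 list, on chromosomes 1 to 19, X and Y of mm9. The rule gave 251 of 2884 FS2-AEBP2 peaks, 8.70% of the list, and of the others 2173 had H3K27me3 and endogenous AEBP2 while 460 had no H3K27me3. In FS2-AEBP2 the whole mouse protein carries a Flag-StrepII tag at its N-terminus, and the cells made it from a pCAG plasmid. It was precipitated through the tag in 1 sample with no replicate. Endogenous AEBP2 and H3K27me3 were each mapped in 2 samples. The labels give wild-type XY cells of strain 129/1 for every one of these samples, while the methods of the study name E14 mESCs for work with the tagged protein. The labels also name an anti-H3K27 antibody, whose target the methods give as the trimethylated form. The tagged protein thus came on top of the AEBP2 that the cells make themselves, and its ChIP used blocked beads and another protocol than that of the endogenous proteins. The peak lists hold no expression values, so the cell type could not be checked against its markers.

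AEBP2 is a zinc finger protein of the PRC2.2 form of Polycomb repressive complex 2, where it sits beside JARID2 on the core of SUZ12, EED and the methyltransferase EZH1 or EZH2. PRC2 places methyl groups on lysine 27 of histone H3, and the trimethylated form, H3K27me3, marks silent genes. In mESCs this mark is found mainly over those CpG islands, stretches rich in CG pairs, that lie at the starts of developmental genes. It spreads from there into flanking chromatin. A tagged protein peak in H3K27me3 where neither antibody sample gave an AEBP2 peak can therefore lie at a start site, in the flank of a larger Polycomb domain or elsewhere.

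All these kinds of position were present. A CpG-island-like region, defined with the shares further on, was present in 38 of the 54 start-site members. Of those among the highest-scoring ones, 3 are given here by the 240 bases of the peak outside untranslated regions that hold the most CG pairs, in capitals (mm9, plus strand). Opcml and Dpp6, which rank beside them, gave stretches of 160 bases with 4 and 5 CG pairs and are not printed. The richest 160 bases of these 2 peaks hold 9 and 17, but overlap untranslated regions. The Chrm2 stretch is chr6:36337815-36338054 with 13 CG pairs and the Slc5a8 stretch chr10:88348493-88348732 with 17, and neither overlaps an annotated protein-coding exon. The Ptprn2 stretch, chr12:117724738-117724977, is intronic and holds 17 CG pairs. A member in the HoxA cluster, in an intron of Hoxa3, is shown as well, by its central 240 bases, chr6:52136663-52136902, which hold 0 CG pairs, while the richest 240 bases of that peak hold 5.
Chrm2 member: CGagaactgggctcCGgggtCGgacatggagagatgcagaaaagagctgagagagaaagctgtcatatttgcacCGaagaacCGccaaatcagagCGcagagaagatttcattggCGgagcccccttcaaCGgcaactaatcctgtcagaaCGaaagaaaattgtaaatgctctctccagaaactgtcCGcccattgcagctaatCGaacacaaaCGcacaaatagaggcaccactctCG
Slc5a8 member: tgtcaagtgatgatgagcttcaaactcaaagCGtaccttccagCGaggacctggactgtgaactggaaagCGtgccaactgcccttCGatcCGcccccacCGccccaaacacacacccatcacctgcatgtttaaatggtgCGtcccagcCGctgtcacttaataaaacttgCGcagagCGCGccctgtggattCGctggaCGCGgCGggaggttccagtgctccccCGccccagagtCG
Ptprn2 member: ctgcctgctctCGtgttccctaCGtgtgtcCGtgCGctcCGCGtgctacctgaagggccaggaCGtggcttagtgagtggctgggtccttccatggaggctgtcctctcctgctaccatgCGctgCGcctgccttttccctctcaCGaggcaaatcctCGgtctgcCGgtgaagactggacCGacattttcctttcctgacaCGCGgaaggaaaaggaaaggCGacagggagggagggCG
HoxA member: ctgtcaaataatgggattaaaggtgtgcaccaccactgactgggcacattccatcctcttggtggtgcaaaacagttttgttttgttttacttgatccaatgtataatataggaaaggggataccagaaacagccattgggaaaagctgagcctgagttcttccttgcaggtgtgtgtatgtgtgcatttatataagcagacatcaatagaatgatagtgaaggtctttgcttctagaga

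The 4 members with the highest scores were made of tandem repeats, and the central 240 bases of 3 of them are shown with those of a further repeat member, of score 7, because the repeat can be read directly (mm9, plus strand). Capitals mark the most frequent 8-base word of the whole peak. In the highest-scoring member the stretch chr2:116383645-116383884 carries the word AGCACTCA, found 176 times in the peak. The chromosome 10 stretch, chr10:112259295-112259534, is shown with CTTCTCTT, found 125 times in its peak. In the chromosome 3 stretch, chr3:62003952-62004191, the word is AAGGGAAG, found 66 times. In the second chromosome 2 stretch, chr2:89227567-89227806, it is CTTCCCCT, found 138 times.
Chromosome 2 member, score 38: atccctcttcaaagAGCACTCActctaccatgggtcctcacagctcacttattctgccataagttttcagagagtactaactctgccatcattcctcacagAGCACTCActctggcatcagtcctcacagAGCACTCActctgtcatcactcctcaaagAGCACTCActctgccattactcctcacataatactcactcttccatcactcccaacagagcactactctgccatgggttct
Chromosome 10 member, score 25: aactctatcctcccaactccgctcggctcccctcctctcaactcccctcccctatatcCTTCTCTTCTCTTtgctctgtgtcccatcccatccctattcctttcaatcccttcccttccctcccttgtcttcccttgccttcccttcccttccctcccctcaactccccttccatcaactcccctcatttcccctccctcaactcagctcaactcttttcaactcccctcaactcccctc
Chromosome 3 member, score 21: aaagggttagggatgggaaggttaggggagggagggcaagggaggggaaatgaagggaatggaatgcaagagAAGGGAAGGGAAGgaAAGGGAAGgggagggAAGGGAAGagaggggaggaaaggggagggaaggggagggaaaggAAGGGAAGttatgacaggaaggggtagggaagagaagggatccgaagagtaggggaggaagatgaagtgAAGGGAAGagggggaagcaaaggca
Chromosome 2 member, score 7: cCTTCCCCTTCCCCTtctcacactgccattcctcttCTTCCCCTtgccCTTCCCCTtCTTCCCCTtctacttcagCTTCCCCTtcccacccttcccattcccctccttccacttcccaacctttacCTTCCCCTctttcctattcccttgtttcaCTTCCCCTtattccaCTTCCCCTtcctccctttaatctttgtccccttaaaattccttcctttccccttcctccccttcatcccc

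The members fell into a flanking and a stand-alone kind. When the peaks of both H3K27me3 lists were joined into domains, 161 members (64.1%, 95% Wilson interval 58.0 to 69.8) lay in a domain that held an endogenous AEBP2 peak at another place. Among all 2424 FS2-AEBP2 peaks with H3K27me3 this share was 96.2%, which is in large part given by the rule, since the others overlap such a peak themselves. These flanking members lay a median of 811 bp from the nearest endogenous AEBP2 peak (quartiles 473 and 1304 bp), with 99 within 1 kb and 144 within 2 kb. The other 90, stand-alone members lay in AEBP2-free domains, at a median of 105657 bp from the nearest endogenous AEBP2 peak (quartiles 26095 and 263144 bp). The name refers to the domain only, since 12 of them lay within 5000 bp of an endogenous AEBP2 peak and 18 within 10000 bp. In 80 of these 90 the member was the only FS2-AEBP2 peak of its domain, against 27 of the 161 flanking members. The 251 members sat in 223 domains, so peaks of 1 domain are not independent of each other, and the intervals given here cover counting error only.

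**Figure D1:**
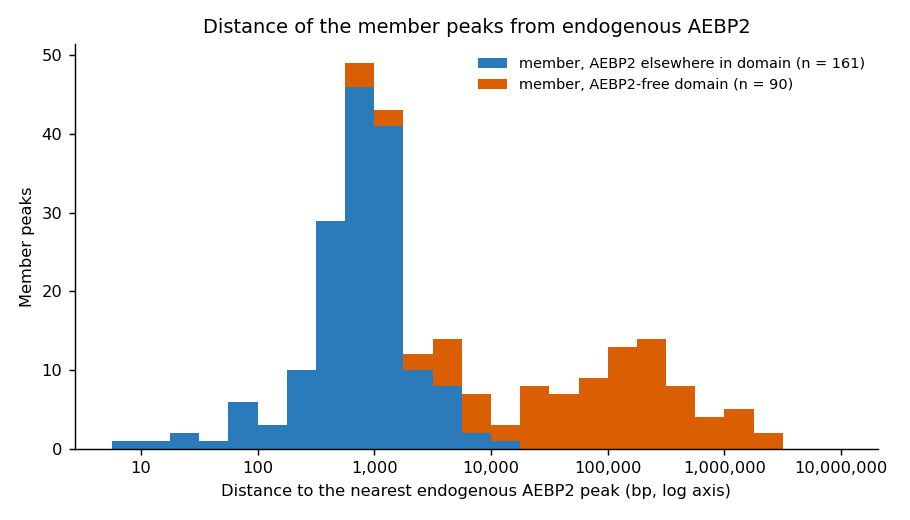
Number of member peaks by distance to the nearest endogenous AEBP2 peak of either replicate (bp, log axis), stacked by whether their H3K27me3 domain holds endogenous AEBP2. The 161 flanking members pile up around 1,000 bp and the 90 members of AEBP2-free domains spread from 610 bp to 2657454 bp.

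The count rested on the larger of the endogenous AEBP2 lists. Replicate 2 held 6779 peaks and replicate 1 held 2877, and for only 46 of the 251 members was the closest endogenous peak one of replicate 1. Without AEBP2 replicate 2 the rule gave 803 peaks, and without AEBP2 replicate 1 it gave 274. Of those 803, 52.2% held a CpG-island-like region and 38.1% lay at a start site, with a median length of 523 bp.

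H3K27me3 covered 240 of 251 members over their whole length. Such cover was also usual in the peaks with endogenous AEBP2, where the median and both quartiles of the covered share were 100%. A short peak is easier to cover whole. Of all members, 208 members (82.9%, interval 77.7 to 87.0) overlapped a peak of both H3K27me3 lists, 25 a peak of replicate 1 only and 18 of replicate 2 only. The share in both lists among all FS2-AEBP2 peaks with H3K27me3 was 96.5%, and it was 98.0% for those with endogenous AEBP2. The domains of the flanking members had a median length of 15557 bp (interval 12314 to 18098), and those of the stand-alone members 4460 bp (3883 to 4883). Counted once per domain, the medians were 13568 bp (10996 to 16855, 138 domains) and 4516 bp (3869 to 5032, 85 domains), and a longer domain has more room for an endogenous AEBP2 peak, on which the split rests. The median H3K27me3 score over flanking members was 19 in replicate 1 and 18 in replicate 2. Over stand-alone members it was 8 and 9, and over the peaks with endogenous AEBP2 it was 21 and 20. The score is in the unit the authors deposited, whose scale is not stated, so it is compared only within a list.

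Length and score of the tagged peaks are tied to the rule, because a longer peak is more likely to overlap anything, and are given as a description. The members had a median length of 291 bp (quartiles 164 and 582 bp) and a range of 106 to 11605 bp, while the peaks with endogenous AEBP2 had a median of 1292 bp (630 and 2478 bp). The FS2-AEBP2 score of the members ranged from 1 to 38 with a median of 5, against 10 with endogenous AEBP2. A score of 10 or more was reached by 31 members (12.4%) and by 1149 (52.9%) of the peaks with endogenous AEBP2, and a score of 20 or more by 7 members (2.79%) and 555 (25.5%).

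**Figure D2:**
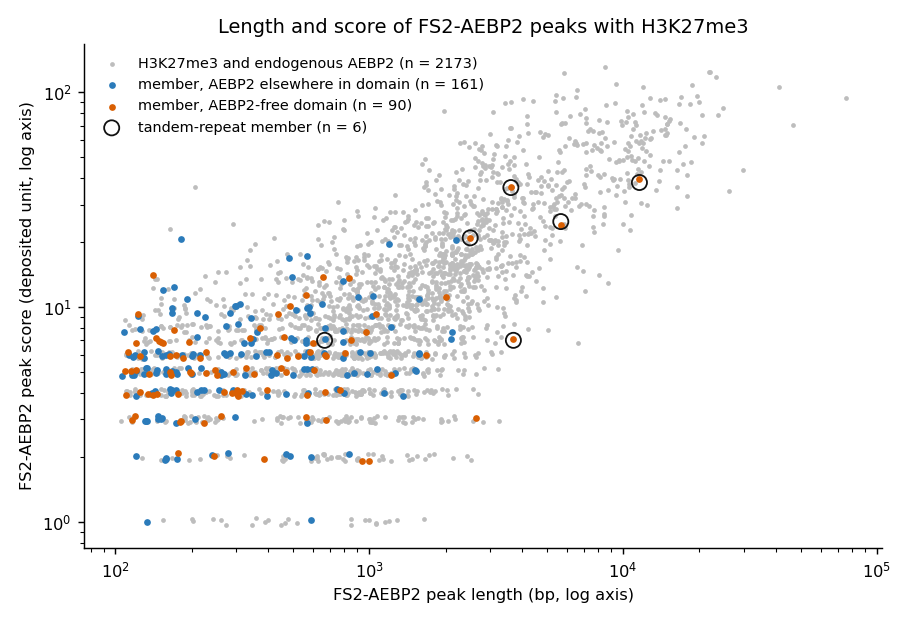
Length (bp) against score (deposited unit) of each FS2-AEBP2 peak with H3K27me3, on log axes, with scores spread by a small random shift. Members sit mostly among the short, low-scoring peaks, and 4 of the 6 circled tandem-repeat members, with scores of 21 to 38, lie apart from them.

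Flanking members were poorer in CG pairs than stand-alone members. The rule used no sequence, but it and the split rest on endogenous AEBP2 peaks. FS2-AEBP2 peaks that overlap those mostly held a CpG-island-like region, so these shares are not independent of the rule and are a description. A CpG-island-like region, made of windows of 500 bp in which G and C make up at least 55% of bases and CG pairs reach at least 0.65 of the number expected from base content, was overlapped by 62 of 251 members (24.7%, interval 19.8 to 30.4), against 73.1% of all FS2-AEBP2 peaks and 84.7% (83.1 to 86.2) of those with H3K27me3 and endogenous AEBP2. It was overlapped by 17 of 161 flanking members (10.6%, 6.70 to 16.3) and by 45 of 90 stand-alone members (50.0%, 39.9 to 60.1). The median observed to expected CpG ratio was 0.230 in flanking members, 0.465 in stand-alone members and 0.595 in peaks with endogenous AEBP2. The median GC content in the same order was 48.8%, 55.7% and 58.0%, and over all members it was 51.3% (interval 50.0 to 52.4).

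The gap in CpG islands was also present within length classes. Among peaks under 250 bp, 26 of 110 members (23.6%, 16.7 to 32.4) and 62.7% (55.8 to 69.1) of the peaks with endogenous AEBP2 overlapped a CpG-island-like region. Among peaks of 1000 bp or more the counts were 6 of 28 members (21.4%, 10.2 to 39.5) and 1189 of 1282 (92.7%, 91.2 to 94.0). The share was lower in the members in each of the 4 length classes, which was not tested. When only the middle base of the peak was asked for, an alternative chosen after seeing the data, 20.3% of members and 63.3% of the peaks with endogenous AEBP2 lay in such a region.

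**Figure D3:**
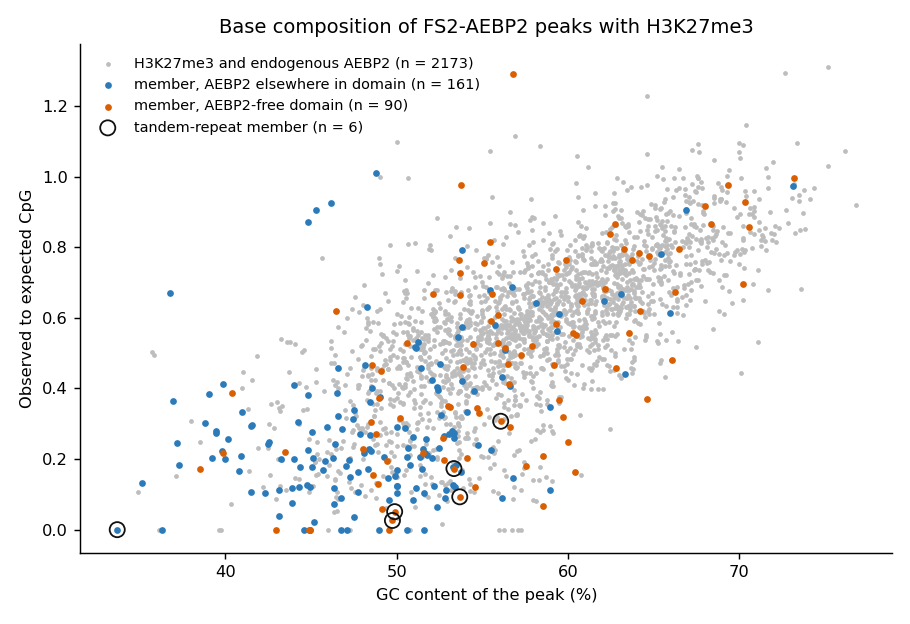
GC content (%) against observed to expected CpG of each FS2-AEBP2 peak with H3K27me3. Peaks with endogenous AEBP2 (grey) form a CpG-rich cloud around 58.0% GC, flanking members lie mostly below it, stand-alone members lie in and below it, and the circled tandem-repeat members have CpG ratios of 0 to 0.307.

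A smaller share of members than of other tagged peaks lay at gene starts. The start was taken at the upstream end of each gene record, so a peak at an inner transcript start could count as exon or intron. By this measure a protein-coding start site lay within 1 kb of 54 of 251 members (21.5%, interval 16.9 to 27). It did so for 50.8% of all FS2-AEBP2 peaks and for 58.5% (56.5 to 60.6) of those with H3K27me3 and endogenous AEBP2. A longer peak is more likely to lie near a start, and these shares too are not independent of the rule. Among peaks under 250 bp they were 21.8% (15.1 to 30.4) in members and 40.8% (34.2 to 47.7) with endogenous AEBP2. Among those of 1000 bp or more they were 14.3% (5.70 to 31.5) and 66.0% (63.4 to 68.5). Over all lengths the share was 10.6% (6.70 to 16.3) in flanking and 41.1% (31.5 to 51.4) in stand-alone members. Of the remaining members 35 overlapped an exon (13.9% of members, against 14.8% of all FS2-AEBP2 peaks) and 60 lay in introns (23.9%, against 9.67%). Outside protein-coding genes lay 102 members (40.6%), against 24.7% of all FS2-AEBP2 peaks and 50.9% of those without H3K27me3. Neither a CpG-island-like region nor a start site was present at 173 members, a count given without a comparison.

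**Figure D4:**
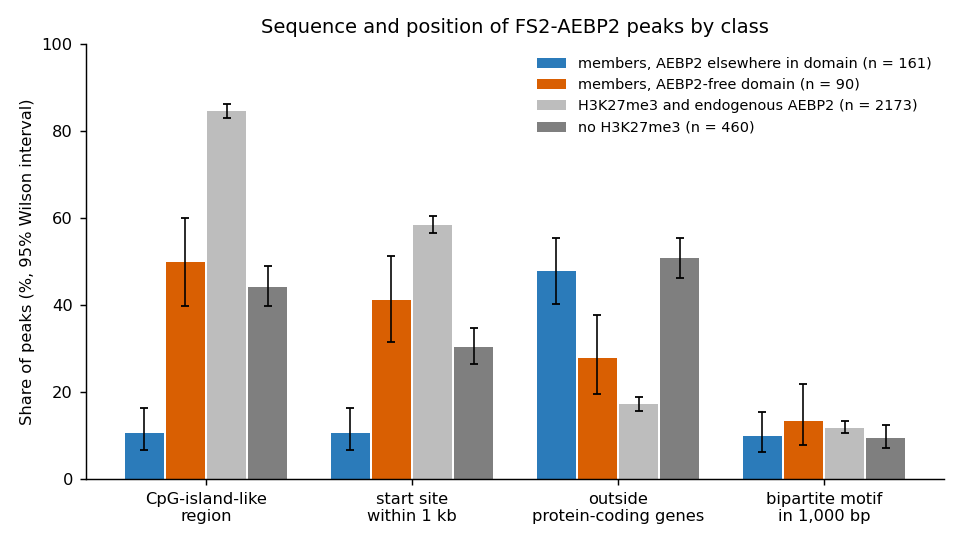
Share of FS2-AEBP2 peaks (%) with each feature in 4 classes, with 95% Wilson intervals as error bars. For CpG-island-like regions the shares are 10.6%, 50.0%, 84.7% and 44.3% in the order of the legend, and for the bipartite motif 9.94%, 13.3%, 11.9% and 9.57%.

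Tandem repeats stood at the top of the member list. As a measure of repetition, the self-match, which is the share of bases identical to the base a fixed distance before, at the best distance from 2 to 60 bp, was computed for peaks of 500 bp or more, and its median was 31.6% in the members. It reached 50%, a limit set after the values were seen, in 6 of 81 members, in 2 of 1747 peaks with H3K27me3 and endogenous AEBP2 and in 1 of 91 peaks without H3K27me3. The highest value below that limit was 47.3% in the members and 49.5% with endogenous AEBP2. Of the 6, 5 lay in AEBP2-free domains, where 29 members had such a length. The comparison was set up on the values themselves and is a description.

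The 4 highest-scoring of all members were among these 6. An adjoining pair lay on chromosome 2, at chr2:116377963-116389567 and chr2:116373861-116377477, with scores of 38 and 36 and self-matches of 65.3% and 62.5% at a period of 29 bp. They shared an H3K27me3 domain of 19193 bp scored 9 in replicate 1 and 7 in replicate 2, and the nearest protein-coding start site was that of Tmco5, 314860 bp away. The longer one measured 11605 bp and had a CpG ratio of 0.026 with a GC content of 49.8%.

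Of the other repeats 3 were one-sided in purines. The member at chr10:112256571-112262258, of 5688 bp and score 25, repeated at 5 bp with a self-match of 64.3% and was 89.5% pyrimidine on the plus strand. The member at chr3:62002821-62005322, of 2502 bp and score 21, also repeated at 5 bp (63.3%) and was 92.4% purine. The one at chr2:89225837-89229537, near the olfactory receptor gene Olfr1238, was 3701 bp long, scored 7, repeated at 15 bp (66.4%) and was 92.3% pyrimidine. The last, of 668 bp in an intron of the potassium channel gene Kcnk9, was a flanking member with a score of 7, a period of 12 bp and 50.4% purines. The 3 longest members were the chromosome 2 member of 11605 bp, the chromosome 10 member and the one near Olfr1238.

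Repeated sequence was measured in a further way, by the share of 32-base words in a peak that occur more than once in mm9. In the chromosome 2 pair 14.3% and 16.7% of words did so and in the chromosome 10 member 11.7%. In the chromosome 3, Olfr1238 and Kcnk9 members the shares were 4%, 1.6% and 3.1%. No such word was present in 81.3% of the 251 members, against 68.0% of all FS2-AEBP2 peaks. A longer peak has more words, and so more room for a repeated one. The median length was 291 bp in members and 893 bp in the whole list. At least 10% of words were repeated in 20 members (7.97%, interval 5.22 to 12), which is near the 7.94% of all FS2-AEBP2 peaks. The share was 2.21% in peaks with H3K27me3 and endogenous AEBP2 and 35.0% in peaks without H3K27me3. A short peak has few words, so 1 repeated word can reach this limit. Of the members 43.8% were under 250 bp, against 9.25% of the peaks with endogenous AEBP2. The part of repeated sequence in the scores of these peaks was not tested, and input libraries were not analysed here. With the 6 repeats left out, 44 of the 85 stand-alone members (51.8%, 41.3 to 62.1) had a CpG-island-like region and 37 (43.5%) a start site.

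The start-site members covered 53 protein-coding genes, 37 of the 54 peaks being stand-alone. The 37 had a median CpG ratio of 0.649 and 30 of them a CpG-island-like region, while the 17 flanking ones lay a median of 218 bp from endogenous AEBP2. The peak covered the start site itself in 5 of the 54, whose median length was 279 bp. In the peaks with H3K27me3 and endogenous AEBP2, of median length 1292 bp, the lower quartile of the distance to a start was 0 bp. It was 1134 bp over all members. A longer peak is more likely to cover a start. The highest score, 14, belonged to a 141 bp peak 291 bp from the start of Fam129a, a stress-induced gene. Its H3K27me3 peak scored 1 in replicate 1, the lowest score over any member, and replicate 2 had no peak over it.

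Opcml, Chrm2, Ptprn2 and Dpp6 came next with Slc5a8. The member at Opcml, a cell adhesion molecule of neurons, was 563 bp long and scored 11, with H3K27me3 scores of 17 and 10 in replicates 1 and 2. The member over the start site of Chrm2, the M2 muscarinic acetylcholine receptor, measured 486 bp, scored 10, and had H3K27me3 scores of 10 and 14. Its nearest endogenous AEBP2 peak was 911502 bp away. Ptprn2, a phosphatase-like protein of secretory granules, had a member of 438 bp and score 9. At Dpp6, an auxiliary subunit of potassium channels, the member measured 974 bp with a score of 8.

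The member over the start of Slc5a8, a sodium-coupled monocarboxylate transporter, was 1067 bp long, scored 9 and had H3K27me3 scores of 22 and 18. Dhrs3, a reductase of retinoid metabolism, had a 600 bp member with a score of 7 and H3K27me3 scores of 2 and 9. Wnt16, a secreted Wnt ligand, carried 1 of 461 bp and score 7, at 338632 bp from endogenous AEBP2. Podn, an extracellular matrix proteoglycan gene, and Spsb1, which encodes an adaptor of a ubiquitin ligase, had flanking members with a score of 7 at only 218 and 13 bp from an endogenous AEBP2 peak. The other start-site members with a score of 7 lay at 3830431G21Rik and between Shroom1, an actin regulator, and Gm10447.

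Of 20 pluripotency genes, 2 had a member at the start site, against 53 of all 22225 gene symbols (0.238%), and 1 had a peak with H3K27me3 and endogenous AEBP2 there. The list was chosen with earlier results of these data known. These 2 genes are few, and the background is all genes and not those with H3K27me3, so this is a description. Prdm14, a factor of naive pluripotency and germ cells, had 2, of 1671 bp with a score of 6 and of 373 bp with a score of 8, in 1 AEBP2-free domain of 3958 bp. The longer one had H3K27me3 scores of 12 and 9, and the shorter one overlapped H3K27me3 in replicate 2 only. Klf4, a reprogramming factor, had a member of 675 bp and score 6, 672 bp from its start, with a CpG ratio of 0.783. Its H3K27me3 domain was 602 bp long and came from replicate 1 only.

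Counted by gene list, members at start sites were found for 53 of 22225 protein-coding gene symbols (0.238%), and peaks with H3K27me3 and endogenous AEBP2 for 1247 (5.61%). None of the 188 homeobox genes, 92 Sox, Fox, T-box, Gata and Pax genes or 72 basic helix-loop-helix genes had one. In lists of this size a count of 0 is near the 0.238% of all symbols. Start-site peaks with H3K27me3 and endogenous AEBP2 stood at 147, 55 and 36 of these genes. Of 80 developmental zinc finger genes 3 had a member (Klf4, Prdm14 and Prdm2), and of 132 signalling genes 2 (Gdf6, a growth factor of the BMP family, and Wnt16). Among 174 genes of axon guidance and adhesion there was 1 (Sema3d), among 173 ion channels 2 (Kcng2 and Trpc6), among 154 receptors 2 (Chrm2 and Gabrb2) and among 368 solute carriers 1 (Slc5a8). There was none among 17 cyclin and CDK inhibitor genes or 80 cytosolic ribosomal protein genes. Peaks with H3K27me3 and endogenous AEBP2 stood at 35 of the zinc finger, 55 of the signalling, 38 of the axon guidance and adhesion, 35 of the ion channel, 43 of the receptor, 24 of the solute carrier, 3 of the cyclin and CDK inhibitor and 0 of the ribosomal protein genes. The rule bars a member from overlapping endogenous AEBP2, so these counts say where members lay and not which genes AEBP2 prefers. With 0 to 3 member genes per list, the lists are too small to be told apart, and differences between them were not tested.

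Homeobox, Sox, Fox, T-box, Gata, Pax and basic helix-loop-helix genes were also neighbours of members. Their shares were near those of the peaks with H3K27me3 and endogenous AEBP2. They were lower by small margins, which rest on 5 to 30 members per list and were not tested. A homeobox gene was the nearest protein-coding gene for 30 members (12%), of which 3 were stand-alone, against 13.9% of the peaks with H3K27me3 and endogenous AEBP2. The Sox, Fox, T-box, Gata and Pax list was nearest for 12 members (4.78%, against 6.35%), all flanking, among them members near Foxa2, Sox9 and Tbx3. Basic helix-loop-helix genes were nearest for 5 members (1.99%, against 3.27%) and developmental zinc finger genes for 11 (4.38%, against 3.50%). Of the non-repeat members away from start sites, the highest score was 20, shared by members near Hoxa4, near Gm9979 on chromosome 13 and near Hes7, a clock gene of somite formation. These 3 tie for the place after the 4 repeats. The Hes7 neighbour measured 182 bp and lay 678 bp from endogenous AEBP2, with a H3K27me3 score of 21 in replicate 1 and no replicate 2 peak. A member of 570 bp and score 18 lay 5895 bp from Neurog2, a proneural factor.

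In the Hox clusters 11 members had a Hox gene as the nearest gene (4.38%, against 1.73% of all FS2-AEBP2 peaks), 10 of them flanking. None of the 11 lay at a start site or held a CpG-island-like region, and their CpG ratios ran from 0 to 0.351. Over all flanking members each feature was present in 10.6%, so 0 of 11 is near that share. The HoxA member of 2190 bp at chr6:52135688-52137877, whose centre is printed above, lay 1353 bp from endogenous AEBP2 in a domain of 118921 bp with 7 FS2-AEBP2 peaks. In HoxC 4 members had Hoxc4 as the nearest gene, in a domain of 142598 bp with 20 FS2-AEBP2 peaks, and scored between 5 and 14. The HoxB members scored 5 to 12.

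By chromosome, X held the largest share of members, 12 of 55 FS2-AEBP2 peaks (21.8%, interval 12.9 to 34.4), and chromosome 16 the smallest among those with peaks, 1 of 53 (1.89%, 0.334 to 9.94). On X 6 members had Bcor, a corepressor of variant PRC1, as the nearest gene. They were 183 to 1038 bp long, scored 2 to 11 and lay between 34953 and 156733 bp from its start, 5 of them in introns. The X chromosome share thus rested on 1 neighbourhood for 6 of its 12 members.

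The bipartite sequence bound by AEBP2 in vitro was searched as CTT, 15 to 23 bases of any kind and CAGGCC, on both strands, in 1000 bp around the peak centre. It was found at 28 members (11.2%, interval 7.83 to 15.7), 11.5% of all FS2-AEBP2 peaks, 11.9% (10.6 to 13.3) of those with H3K27me3 and endogenous AEBP2 and 12% (11.6 to 12.4) of the same length around 22367 protein-coding start sites. The share was 9.94% (6.21 to 15.5) in flanking and 13.3% (7.79 to 21.9) in stand-alone members, and none of the 6 tandem-repeat members had it. A match is a match of letters only.

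At the edge of the rule, the member with the least H3K27me3 in bp overlapped it by 90 of its 109 bp, 24412 bp from Dact2. By covered share the lowest was 28.2%, 190 of 673 bp, in a member 33090 bp from Chd2. The member closest to endogenous AEBP2 was 8 bp away, near Hoxb13. The excluded peak with the least endogenous AEBP2 overlapped it by 2 bp, near Tcfap2b, and the excluded peak closest to H3K27me3 missed it by 2 bp, near Enkur. When an endogenous AEBP2 peak within 1 kb also excluded a peak, 149 members were left.

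**Figure D5:**
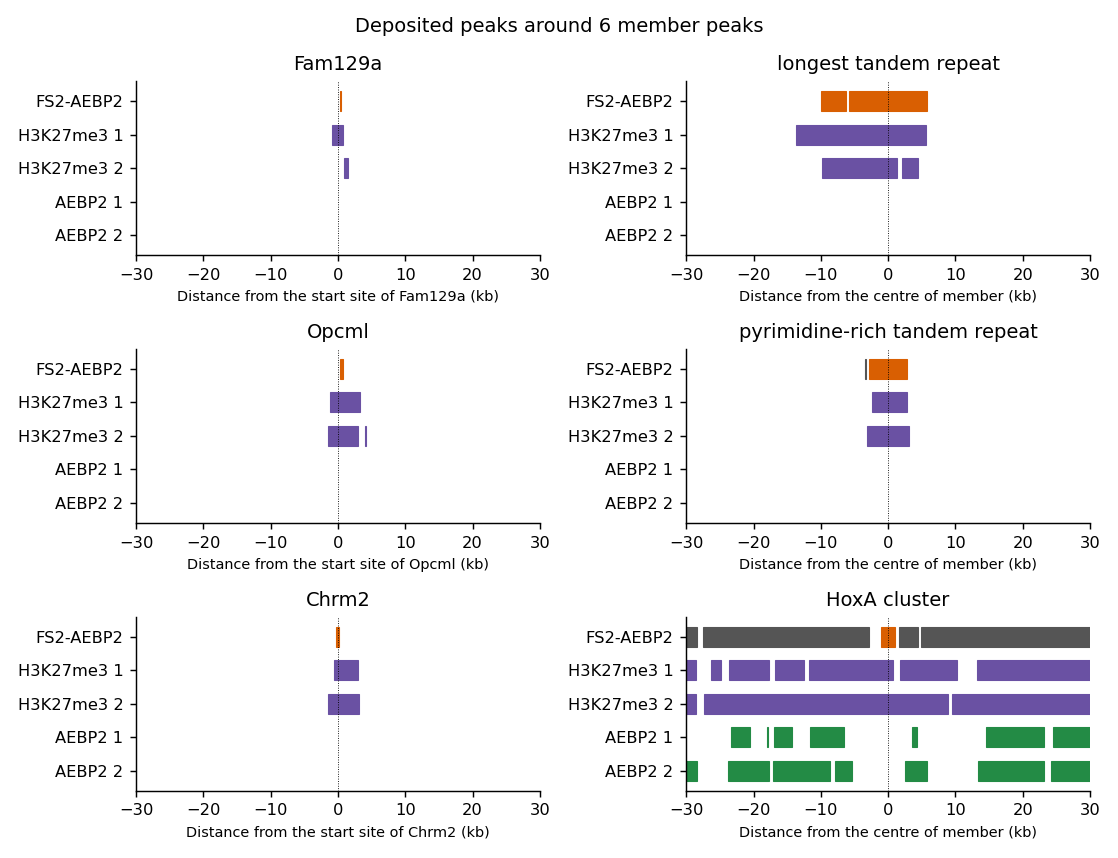
Deposited peaks of the 5 lists within 30 kb of 6 member peaks, as distance (kb) from the gene start or the centre of the member, with FS2-AEBP2 members in orange, other FS2-AEBP2 peaks in grey, H3K27me3 in purple and endogenous AEBP2 in green. The 3 start sites and both repeats have 0 endogenous AEBP2 peaks in the window, while the HoxA member lies between 7 peaks of AEBP2 replicate 1 and 7 of replicate 2. The maps on the right were chosen after their values were seen.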

How the data were processed

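The deposited files were 5 lists of broad peaks, 1 of FS2-AEBP2 and 2 each of H3K27me3 and endogenous AEBP2, with a start, an end and a score per peak. Per the labels the build was mm9, and the processing notes of the submitters name Bowtie, SAMtools, Picard and MACS2 2.0.10.2 without roles. The authors deposited the score in a unit that is not given in the sources used here, as are the calling threshold and control. The lists hold no read counts, so depth is unknown. The notes and file names of the H3K27me3 replicates seemed to number them in opposite order, and the records were followed. SUZ12, input and mutant samples were not analysed here.

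Members, gene lists and comparisons were chosen with earlier results of these data known. With 1 FS2-AEBP2 sample no test was made. Overlaps of at least 1 bp were counted on chromosomes 1 to 19, X and Y, which left out 15 peaks in all lists. Shares have 95% Wilson intervals, and medians have quartiles and 95% binomial intervals. CpG-island-like regions came from 500 bp windows in steps of 10 bp, joined. Start sites, exons and introns came from GENCODE vM1 (22367 protein-coding gene records with 22225 distinct symbols), and sequences from NCBIM37 (mm9). The start site was the upstream end of the gene record, and starts of inner transcripts were not used. Tandem self-match used periods of 2 to 60 bp, and 32-base words were taken every 20 bp. Named genes were the 15 with a start site within 1 kb of the highest-scoring members, the 5 highest-scoring members elsewhere, the 3 longest, members of the gene lists, and the peaks at the edge of the rule; others, such as the tandem repeats, the Hox, X chromosome and further distal members, were chosen after their values were seen. For the sequences shown, stretches in untranslated regions and chromosome 18 were left out. Scripts were tested on simulated data and used pysam 0.24.0, samtools 1.23.1, scipy 1.17.1, matplotlib 3.10.9, pandas 2.3.3 and numpy 2.4.6 under Python 3.11.15. Alternatives changed the overlap, distance and score limits, the island and start-site definitions and the lists used, and left out each replicate in turn.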

Additional observations from a re-analysis of the deposited data

How the results depend on the processing

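No paired analysis was possible because the FS2-AEBP2 peaks came from 1 sample and no result came from a test. Of 103 alternative values, 71 stayed within the interval of the reported value, or within 1.5 times the reported count, and 32 did not. With replicates left out in turn, the number of members ranged from 226 to 803, the share with a CpG-island-like region from 23.6% to 52.2%, at a start site from 21% to 38.1%, in both H3K27me3 lists from 83.6% to 91.0%, with AEBP2 in the domain from 44.7% to 63.9%, the median length from 290 to 523 bp, the median score from 5 to 6 and the median GC content from 51.1% to 55.1%. The highest count and the values that moved came from leaving out AEBP2 replicate 2, which leaves fewer peaks to exclude a member.

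When endogenous AEBP2 within 1 kb also excluded a peak, the members numbered 149, with 31.5% in CpG-island-like regions, 41.6% with AEBP2 in the domain and a GC content of 52.7%. With FS2-AEBP2 scores at or above the list median 42 members were left, 19% in islands, 11.9% at start sites and 76.2% in both H3K27me3 lists, with a median length of 540 bp and a GC content of 48.6%. With H3K27me3 scores so limited, 75% were in both lists. With endogenous AEBP2 scores so limited there were 555 members, 54.1% in islands, 38.7% at start sites, 87.9% in both H3K27me3 lists and 36.4% with AEBP2 in the domain, with a median length of 475 bp and a GC content of 55.9%. Joining FS2-AEBP2 peaks within 1 kb gave 167 members, 34.1% in islands, 29.9% at start sites and 49.1% with AEBP2 in the domain, with a GC content of 53.1%. A start site within 2.5 kb was found for 40.2%, and a looser island definition for 37.5%. The cause of these changes beyond the numbers of peaks was not tested. Leaving out the tandem repeats, chosen after seeing the data, moved none of the 8 results.

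The lists give no depth, so a missing endogenous AEBP2 peak means only that none passed the authors' threshold. The single FS2-AEBP2 sample gives no replicate check of any member.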
